A study of Rattus norvegicus with 6 samples.

Results

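The brains of aged rats were compared at 14 d and at 3 d after an experimental stroke, in the tissue around the infarct. The comparison used 2 of the 6 arrays of the series: the pool of aged rats at 14 d, minus the pool of aged rats at 3 d, gene by gene. All animals were male Sprague-Dawley rats, an outbred strain. The aged stroke rats were 19 to 20 months old, and blood flow in the middle cerebral artery had been interrupted for a time by lifting the vessel with a hook. RNA of 23 such rats was pooled for each time point and hybridised to 1 array. The other 4 arrays held pools of 19 young stroke rats (3 to 4 months) at 3 d and at 14 d, and of 15 naive rats of each age (3 to 5 and 18 to 20 months) without a stroke. For naive rats the labels speak of healthy brain and name no region. Brain region and stroke therefore cannot be told apart wherever a naive level is set beside a level after stroke. Of 14497 genes measured under 1 symbol, 10947 reached the 40th percentile of an array at least once and were kept, and 3550 did not. With 1 pooled array on each side, no difference between the time points could be tested, the spread between animals cannot be seen, and "higher" and "lower" describe these 2 arrays.

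At 3 d after an infarct, the surrounding tissue is known for dividing microglia, invading blood cells and astrocytes taking on a reactive state. Over the following weeks phagocytes clear dead cells and myelin, fibroblast-like cells of the meninges and vessels lay down matrix, and astrocytes wall off the lesion. Type I interferons act through the receptor, STAT proteins and IRF factors to raise a common set of antiviral genes, and microglia of aged brain are known for a raised tone of this kind.

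The medians of the 6 arrays lay between 7.09 and 7.15, and those of the aged 3 d and 14 d arrays were 7.14 and 7.15. Across all 28826 probe sets these 2 arrays had a Pearson correlation of 0.989, in a range of 0.962 to 0.995 over all pairs. The label of brain tissue was borne out by its markers: the neuronal gene Snap25 stood at 12.42 at 3 d and 12.46 at 14 d, and the myelin gene Mog at 10.77 and 10.73. Although the series title speaks of cortex, the striatal genes Drd2 (8.31 and 8.38) and Rgs9 (8.40 and 8.33) lay near the 70th percentile of both arrays. The striatal gene Drd1 (7.64 and 7.29) lay lower, at the 58.5th and 52.3rd percentile. The T cell receptor chains Cd3d, Cd3e and Cd3g lay between the 7.23rd and the 23.1st percentile on both aged stroke arrays, and the B cell gene Ms4a1 at the 15.1st and 15.7th. Shares of cells and RNA per cell cannot be told apart in such bulk tissue, for any gene described here.

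Between 3 d and 14 d, 165 genes were at least 2-fold higher (1.51% of all genes kept) and 97 were at least 2-fold lower (0.886%), 262 genes or 2.39% in all. Differences are given as the 14 d value minus the 3 d value on the log2 scale, so that 1 means 2-fold. Their median over all genes was -0.0027, and the middle 95% lay between -0.53 and 0.78. The 165 higher genes had a median level of 6.90 in naive aged rats, 7.42 at 3 d and 8.98 at 14 d. The step from 3 d to 14 d is set by the choice of these genes, and the naive values are a description beside it. The 97 lower genes ran 6.15, 7.93 and 6.47, with the 14 d median near the naive one. At 14 d, 50 of these 97 were below the 40th percentile of the array, and 31 of the 165 higher genes were below it at 3 d, so that those levels are close to background.

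**Figure D1:**
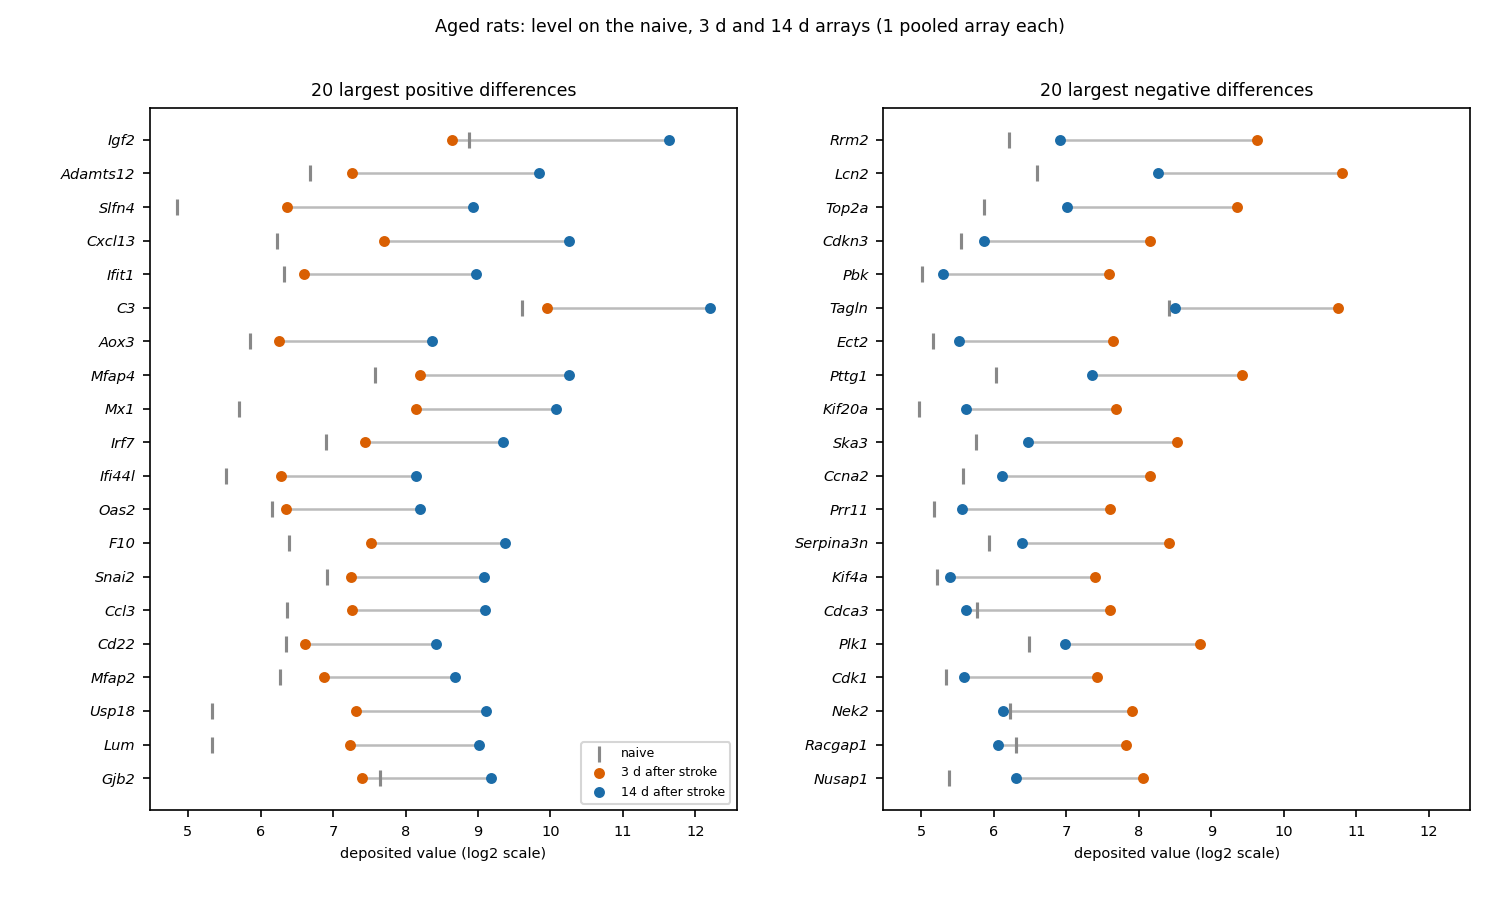
Deposited log2 value of the 20 genes with the largest positive and the 20 with the largest negative difference in aged rats, on the naive (grey bar), 3 d (orange) and 14 d (blue) arrays, 1 pooled array each. On the right most naive values lie at or below the 14 d value, as far as 6.60 against 8.27 for Lcn2, with the gap from 3 d to 14 d reaching 3.00 for Igf2 and -2.71 for Rrm2.

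Genes of cell division were lower at 14 d, and the mitosis list had the lowest median of the 59 lists. The lists were chosen with earlier results of these data known, so such a rank is only a description. Of 43 mitosis genes measured, 41 were kept, all 41 had a negative difference, and 35 were at least 2-fold lower (22 with a 60th percentile filter), with a list median of -1.54. Their median level ran 5.86 in naive aged rats, 7.65 at 3 d and 6.19 at 14 d. Top2a, the topoisomerase that untangles chromosomes, stood at 5.86 in naive aged rats, 9.36 at 3 d and 7.01 at 14 d, a difference of -2.35. Cdkn3, a phosphatase acting on cyclin-dependent kinases, ran 5.54, 8.16 and 5.87 (difference -2.29). Ect2, which starts the cleavage furrow, ran 5.16, 7.64 and 5.52 (difference -2.12). In all of these the 3 d array stood apart, and the 14 d array lay closer to the naive one than to 3 d. For Cdkn3 and Ect2 the naive and 14 d values were both below the 40th percentile, so that closeness is between levels near background. Pbk, a mitotic kinase, differed by -2.28, the securin Pttg1 by -2.08, the kinesin Kif20a by -2.07 and cyclin A2 (Ccna2) by -2.04. Cdk1, the kinase that drives entry into mitosis, went from 7.43 to 5.58 with a naive value of 5.34, and Plk1, another mitotic kinase, from 8.84 to 6.98 with a naive value of 6.49. Ska3 (-2.06) and Nek2 (-1.77), which act at kinetochores and centrosomes, were lower too, as was Prr11 (-2.04). Pbk, Kif20a, Ccna2, Cdk1, Ska3, Nek2 and Prr11 were likewise below the 40th percentile on both the aged naive and the aged 14 d arrays.

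DNA replication genes were lower by less. Of 36 measured 34 were kept, 33 had a negative difference and 6 were at least 2-fold lower (3 with a 60th percentile filter), with a median of -0.56. Rrm2, the small subunit of ribonucleotide reductase, which makes the building blocks of DNA, had the largest negative difference of all genes named here. It stood at 6.21 in naive aged rats, 9.63 at 3 d and 6.91 at 14 d, a difference of -2.71, and its other probe set gave -2.19. Mcm5, part of the replicative helicase, differed by -1.48, Gins1 of the same machine by -1.16 and Uhrf1, which carries DNA methylation through replication, by -1.15. In young rats 35 of 41 mitosis genes and 12 of 34 replication genes were at least 2-fold lower, with medians of -1.86 and -0.82.

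Promoters are shown for the 3 genes with the largest negative differences whose entry in the RefSeq promoter table (build GRCr8) held both motifs of division genes searched for: Top2a (chr10:84473044-84473343, minus strand), Cdkn3 (chr15:22502136-22502435, plus strand) and Ect2 (chr2:111966577-111966876, minus strand). Each runs 5′ to 3′ from 250 bases before the start of the gene to 50 bases into it. Capitals mark TTTGAA, a core of the cell cycle element known as CHR, and CCAAT, the box bound by NF-Y, or their reverse complements TTCAAA and ATTGG.
Top2a: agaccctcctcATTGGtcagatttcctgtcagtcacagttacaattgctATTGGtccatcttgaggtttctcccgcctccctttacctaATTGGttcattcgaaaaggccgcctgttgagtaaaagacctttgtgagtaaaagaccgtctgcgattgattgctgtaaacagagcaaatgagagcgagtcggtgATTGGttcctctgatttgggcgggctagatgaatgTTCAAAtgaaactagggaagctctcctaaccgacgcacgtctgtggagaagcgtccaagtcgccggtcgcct
Cdkn3: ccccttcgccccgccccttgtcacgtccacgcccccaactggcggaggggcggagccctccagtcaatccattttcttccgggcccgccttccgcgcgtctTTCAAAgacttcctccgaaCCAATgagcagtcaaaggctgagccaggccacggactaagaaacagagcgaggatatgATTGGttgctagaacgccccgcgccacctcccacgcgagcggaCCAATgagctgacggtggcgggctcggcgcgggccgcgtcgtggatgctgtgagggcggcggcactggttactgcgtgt
Ect2: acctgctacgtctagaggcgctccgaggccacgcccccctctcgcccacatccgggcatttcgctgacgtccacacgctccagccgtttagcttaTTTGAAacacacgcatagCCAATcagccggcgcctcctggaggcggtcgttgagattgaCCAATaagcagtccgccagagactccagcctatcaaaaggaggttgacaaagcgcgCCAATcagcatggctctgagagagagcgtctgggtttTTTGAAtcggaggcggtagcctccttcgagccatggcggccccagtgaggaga
Top2a held TTTGAA on the reverse strand at position -22 and 4 CCAAT boxes, Cdkn3 held it at -149 with 3 boxes, and Ect2 at -155 and -3 with 3 boxes. Searched on both strands, TTTGAA was found in 41 of 85 promoters of the genes at least 2-fold lower (48.2%), in 20 of 126 of the higher genes (15.9%) and in 1018 of 9041 of all genes kept (11.3%). CCAAT was found in 61.2%, 48.4% and 37.9% of the same sets, and both motifs together in 34.1%, 6.35% and 4.77%. Of the 34 mitosis genes with a promoter entry, 20 held both. Such a match describes letters in a window and shows no binding.

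Interferon-stimulated genes were higher at 14 d, and the effector list had the highest median of the 59 lists. As for mitosis, this rank is only a description, because the lists were chosen with earlier results known. All 41 measured effectors were kept, all 41 had a positive difference, and 20 were at least 2-fold higher, with a median of 0.93. Their median level ran 6.65 in naive aged rats, 7.78 at 3 d and 9.001 at 14 d. Ifit1, which holds back foreign RNA at the ribosome, stood at 6.33 in naive aged rats, 6.61 at 3 d and 8.98 at 14 d, a difference of 2.37. Mx1, an antiviral GTPase, ran 5.70, 8.15 and 10.07 (difference 1.92). Ifi44l ran 5.53, 6.28 and 8.15, and Oas2, a sensor enzyme for double-stranded RNA, 6.16, 6.35 and 8.21, both with a difference of 1.86. Mx1 was thus already high at 3 d, whereas Ifit1 and Oas2 were near their naive values then. Oas2 and Ifi44l were below the 40th percentile on both the naive and the 3 d aged arrays, and Ifit1 and Mx1 on the naive one. Those values are close to background, so this contrast in timing is less certain. Usp18, a brake on the interferon receptor, ran 5.34, 7.32 and 9.12 (difference 1.80). Oas and Ifit genes have near relatives in the genome, and a probe may pick up more than 1 of them.

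Of 29 genes of interferon sensing and signalling, 25 were kept, 2 were at least 2-fold higher and 1 lower, with a median of 0.35. Irf7, the factor that amplifies type I interferon, stood at 6.90 in naive aged rats, 7.44 at 3 d and 9.35 at 14 d (difference 1.91). Tlr9, a receptor for DNA in endosomes, differed by 1.23 and Irf5 by 0.85. Socs3, an inhibitor of cytokine receptors, went the other way, from 8.28 to 7.27. Slfn4, a Schlafen gene of myeloid cells, ran 4.84, 6.37 and 8.93 (difference 2.56), with the 3 d value below the 40th percentile of the array.

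On the higher side, promoters are shown for Irf7, Ifi44l and Oas1b, the 3 largest positive differences whose RefSeq entries (build GRCr8) held GAAA and again GAAA with 2 bases between the copies (GAAANN, then GAAA), a core of the interferon-stimulated response element. They are Irf7 (chr1:205799974-205800273, minus strand), Ifi44l (chr2:243328473-243328772, plus strand) and Oas1b (chr12:41395803-41396102, minus strand). Capitals mark the motif or its reverse complement.
Irf7: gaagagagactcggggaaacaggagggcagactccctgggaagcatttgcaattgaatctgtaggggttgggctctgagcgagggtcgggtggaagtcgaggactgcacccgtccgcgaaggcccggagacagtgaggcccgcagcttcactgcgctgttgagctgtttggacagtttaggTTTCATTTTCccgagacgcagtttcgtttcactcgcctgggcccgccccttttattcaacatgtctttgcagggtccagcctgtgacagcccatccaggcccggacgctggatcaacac
Ifi44l: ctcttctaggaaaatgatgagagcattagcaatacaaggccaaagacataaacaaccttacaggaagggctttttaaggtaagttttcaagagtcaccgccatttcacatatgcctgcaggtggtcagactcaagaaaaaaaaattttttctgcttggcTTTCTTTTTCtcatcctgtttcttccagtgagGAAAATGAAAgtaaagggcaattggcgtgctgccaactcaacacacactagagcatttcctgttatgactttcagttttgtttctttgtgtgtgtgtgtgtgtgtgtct
Oas1b: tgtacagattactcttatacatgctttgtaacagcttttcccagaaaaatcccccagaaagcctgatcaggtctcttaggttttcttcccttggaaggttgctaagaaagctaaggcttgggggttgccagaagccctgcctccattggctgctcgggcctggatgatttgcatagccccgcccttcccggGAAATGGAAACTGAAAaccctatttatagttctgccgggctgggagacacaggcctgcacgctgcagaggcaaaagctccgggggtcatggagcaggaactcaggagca
Irf7 held the motif at position -69, Ifi44l at -91 and -59, and Oas1b at -59 and -53, where the copies overlap. Searched on both strands it was found in 21 of 29 effectors with a promoter entry (72.4%), in 20 of 126 genes at least 2-fold higher (15.9%), in 3 of 85 lower genes (3.53%) and in 264 of 9041 of all genes kept (2.92%).

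**Figure D2:**
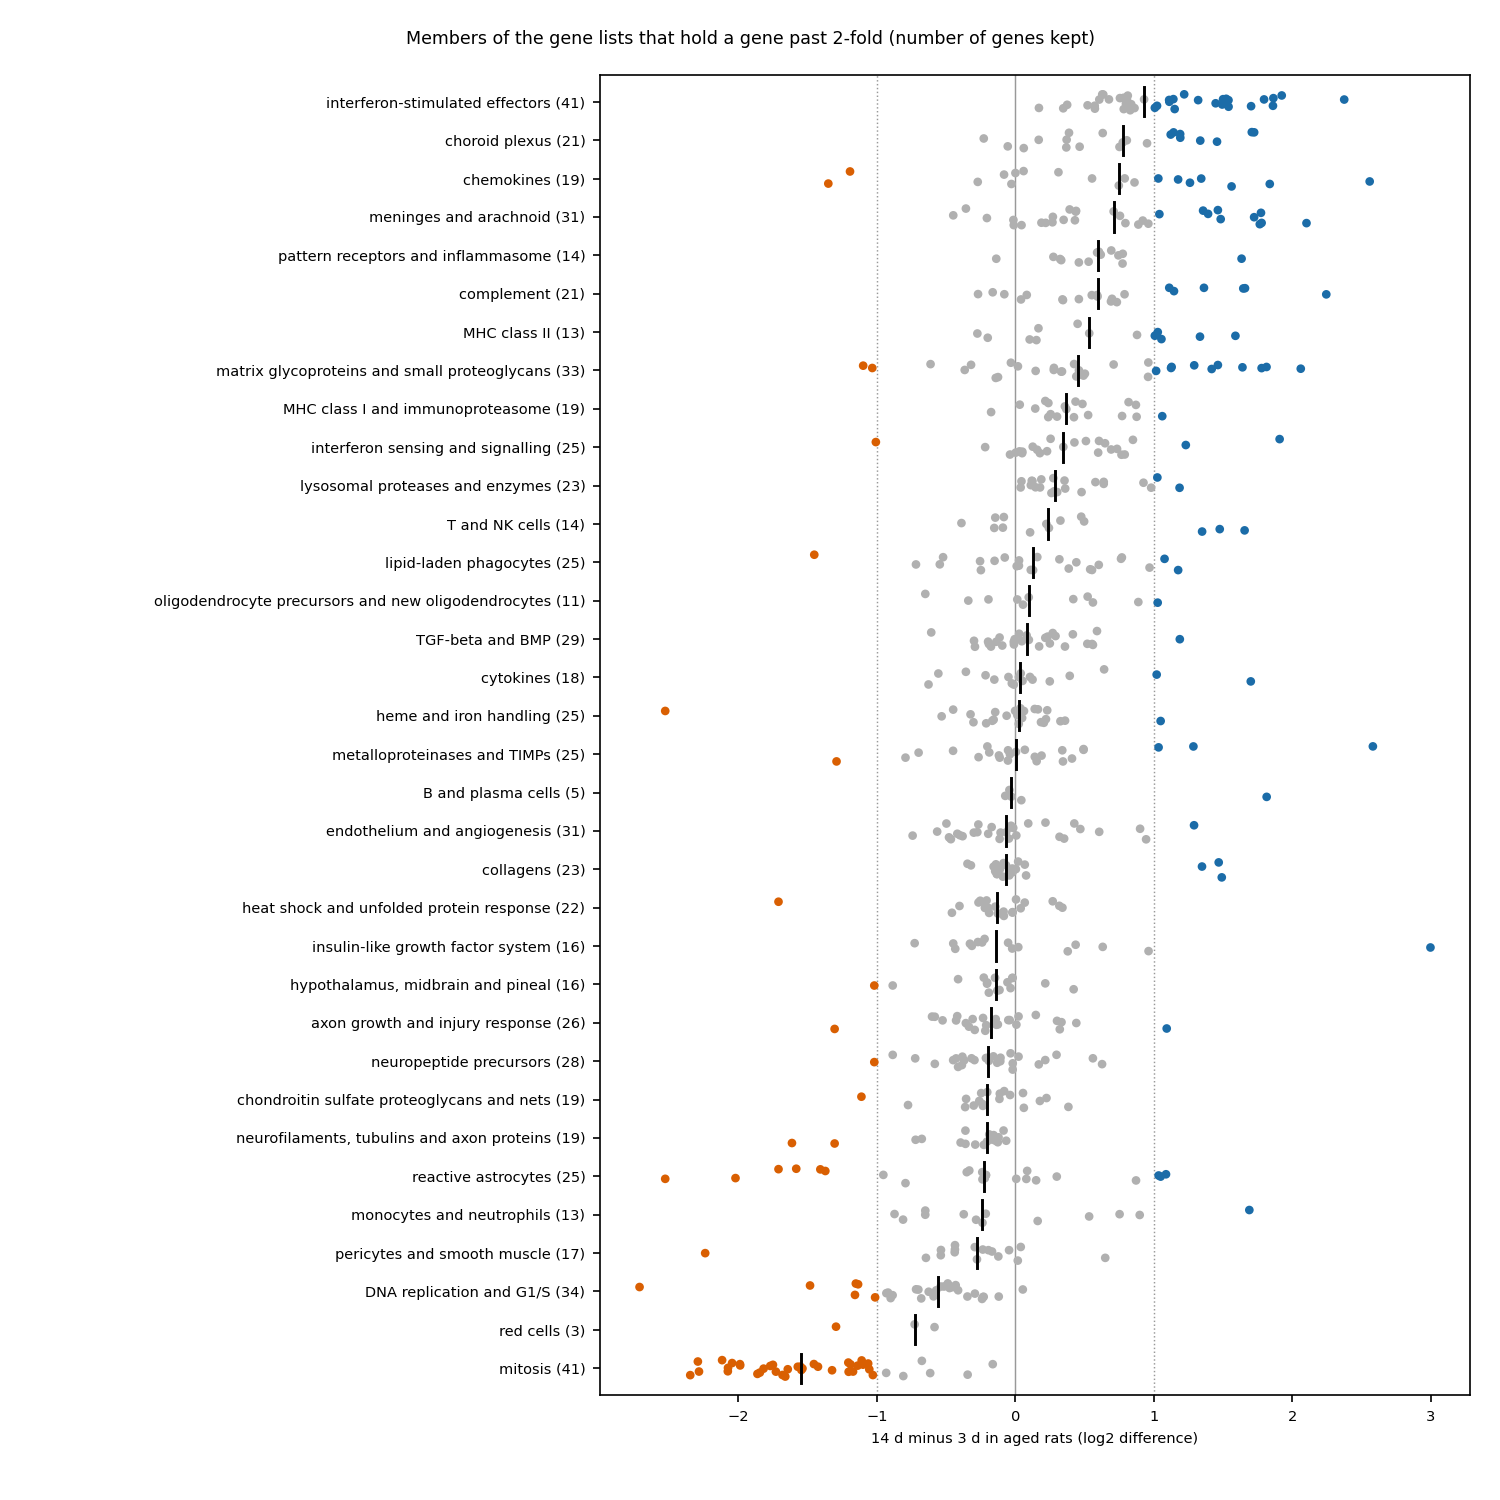
Difference between 14 d and 3 d in aged rats (log2) for every kept member of the 34 lists that hold at least 1 gene past 2-fold, with the list median as a black bar and the number of kept genes in brackets. Blue points are at least 2-fold higher, orange points at least 2-fold lower, and medians run from -1.54 for mitosis to 0.93 for interferon effectors.

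Antigen presentation was higher, with the larger differences in class II. Of 15 MHC class II genes measured 13 were kept, 11 had a positive difference and 5 were at least 2-fold higher, with a median of 0.53 (0.88 with a 60th percentile filter). RT1-Da, a class II alpha chain, stood at 8.01 in naive aged rats, 8.84 at 3 d and 10.43 at 14 d, a difference of 1.59. Cd74, the invariant chain that guides class II molecules to the endosome, ran 10.36, 11.25 and 12.58 (difference 1.33). RT1-Bb differed by 1.05 and RT1-Ba by 1.03. In young rats the 3 d array was the higher one for most of these: RT1-Da ran 6.40, 9.66 and 9.31, and the list median was -0.35 with no gene past 2-fold. The 19 class I and immunoproteasome genes were all kept, 18 had a positive difference and 1, RT1-S3 (1.06), was past 2-fold, with a median of 0.37. RT1 genes are nearly identical to each other, so values of single members may be mixed.

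Complement, the cascade that tags debris and synapses for removal, was higher in part. Of 24 genes measured 21 were kept, 6 were at least 2-fold higher and 0 lower, with a median of 0.59. C3, the central component, stood at 9.61 in naive aged rats, 9.96 at 3 d and 12.20 at 14 d, a difference of 2.24. C1s, a protease of the first complex, differed by 1.66, C7 of the membrane attack complex by 1.65 and factor D (Cfd) by 1.36. C3 was near its naive level at 3 d in the aged pools, while its young values ran 7.99, 9.46 and 11.62.

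Genes of phagocytes had list medians between 0.13 and 0.60, with few members past 2-fold. Homeostatic microglia genes (12 of 12 kept) had no member past 2-fold and a median of 0.35, led by Olfml3 (0.88). Lipid-laden phagocyte genes (25 of 28 kept) had a median of 0.13 with 2 higher and 1 lower. Cd68, a lysosomal protein of macrophages, stood at 6.89 in naive aged rats, 10.31 at 3 d and 11.48 at 14 d, a difference of 1.18, and the receptor Axl, which recognises dying cells, differed by 1.08. Spp1, a secreted glycoprotein made by phagocytes in injured tissue, ran 7.73, 12.31 and 10.86, so it was lower by 1.45 at 14 d and still far above its naive level. Among lysosomal enzymes all 23 kept of 24 had a positive difference, 2 were past 2-fold and the median was 0.29, with cathepsin K (Ctsk) at 1.19 and cathepsin H (Ctsh) at 1.03. Pattern receptors and inflammasome genes (14 of 14 kept) had a median of 0.60, and Aim2, a sensor of DNA in the cytosol, was the single gene past 2-fold at 1.63. Aim2 was below the 40th percentile on every array but the aged 14 d one, so its 3 d value (5.93) is close to background. NADPH oxidase subunits (5 of 10 kept) had a median of 0.38 (0.03 with no filter) and Fc receptors (6 of 7 kept) 0.44, with no member past 2-fold.

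Genes of blood-borne and border cells went less evenly. Monocyte and neutrophil genes (13 of 23 kept) had a median of -0.24, and Plac8 was the only member past 2-fold, from 7.80 at 3 d to 9.49 at 14 d with 6.33 in naive aged rats. Mmp9, a gelatinase of neutrophils, was at 7.66 and 6.78. Border and tissue-repair macrophage genes (9 of 11 kept) had a median of -0.37 with none past 2-fold, and the folate receptor Folr2 was at 10.31 and 9.60. T and NK cell genes (14 of 30 kept) had a median of 0.23 with 3 members higher: Nkg7 (1.65), Cd4 (1.48) and Cd8b (1.35). With a 60th percentile filter the median was 1.35, the value of Cd8b itself. Nkg7 and Prf1, another member, were below the 40th percentile on every array but the aged 14 d one. Both were thus kept only through the array on which they were highest, and their 3 d values are close to background. Cd4 is also carried by rat macrophages and microglia, and stood at 8.99 in naive aged rats, 9.58 at 3 d and 11.05 at 14 d. Cd22, an inhibitory receptor of B cells that is also found on microglia, was the only one of 5 kept B and plasma cell genes past 2-fold, at 6.36, 6.61 and 8.42, while the list median was -0.03 (0.89 with a 60th percentile filter). Only 2 of 10 mast cell genes were kept, with a median of 0.17 (-0.08 with no filter).

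Chemokines divided by member. Of 32 measured 19 were kept, 7 were at least 2-fold higher and 2 lower, with a median of 0.75 (0.22 with no filter on low values). Cxcl13, which draws B cells, stood at 6.23 in naive aged rats, 7.70 at 3 d and 10.26 at 14 d, a difference of 2.56. Ccl3, an inflammatory chemokine of macrophages, ran 6.37, 7.26 and 9.10 (difference 1.84), and Ccl6 5.55, 7.20 and 8.76 (difference 1.56). The monocyte attractants Ccl2 and Ccl7 were the lower ones: Ccl2 ran 6.55, 11.14 and 9.79 (difference -1.35), and Ccl7 was at 7.35 and 6.16. Thus the high values of Ccl2 were on the 3 d array and those of Cxcl13 and Ccl3 on the 14 d array. Of cytokines 18 of 28 were kept, with a median of 0.03. Tnfsf10 (TRAIL), a ligand of death receptors, went from 6.99 to 8.69, and Il1a from 5.82 to 6.84. Only on the aged 14 d array did Il1a reach the 40th percentile, so it was kept through that array alone.

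Matrix genes were higher in a subset. Of 36 matrix glycoproteins and small proteoglycans 33 were kept, 10 were at least 2-fold higher and 2 lower, with a median of 0.45. Mfap4, a microfibril protein, stood at 7.57 in naive aged rats, 8.20 at 3 d and 10.26 at 14 d, a difference of 2.06. Mfap2, of the same fibres, differed by 1.81, and lumican (Lum), a small proteoglycan that spaces collagen fibrils, ran 5.33, 7.24 and 9.02 (difference 1.78). Periostin (Postn, -1.10) and thrombospondin 1 (Thbs1, -1.03), matrix proteins of early wounds, were lower. All 23 collagens measured were kept, with a median of -0.07. The fibrillar collagens Col1a2 (1.49), Col1a1 (1.47) and Col3a1 (1.35) were the 3 past 2-fold, and Col1a1 ran 7.98 in naive aged rats, 8.73 at 3 d and 10.20 at 14 d. The other 20 collagens lay within 2-fold, so the median does not show the group of 3. With the 60th percentile filter, which leaves out dim members, it was 1.35, the value of Col3a1 itself.

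Of 31 metalloproteinases and their inhibitors 25 were kept, 3 were higher and 1 lower, with a median of 0.00. Adamts12, a secreted protease, stood at 6.68 in naive aged rats, 7.26 at 3 d and 9.84 at 14 d, a difference of 2.58. Adamts15 differed by 1.29, Mmp14, a collagenase on the cell surface, by 1.03, and Adamts1, which cleaves aggrecan and versican, by -1.29. Chondroitin sulfate proteoglycan and net genes (19 of 21 kept) had a median of -0.20, with neurocan (Ncan), an inhibitor of axon growth, lower from 11.21 to 10.10. TGF-beta and BMP genes (29 of 30 kept) had a median of 0.08, and Bmp6 was the only one past 2-fold at 1.19.

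Igf2, a fetal growth factor that the adult brain makes mainly in meninges and choroid plexus, had the largest positive difference of all genes named here. It stood at 8.88 in naive aged rats, 8.64 at 3 d and 11.64 at 14 d, a difference of 3.00 or 7.98-fold. It was the only one of 16 kept insulin-like growth factor genes (of 19) past 2-fold, the list median being -0.14, while Igf1 went from 9.91 to 10.87. None of 22 kept neurotrophic factors and receptors (of 26) was past 2-fold, with a median of -0.09.

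Genes of the meninges and of the choroid plexus were higher as groups, along with Igf2. Of 32 meningeal genes 31 were kept, 10 were at least 2-fold higher and 0 lower, with a median of 0.71. Their median level ran 7.64 in naive aged rats, 8.13 at 3 d and 8.94 at 14 d. Aox3, an aldehyde oxidase, stood at 5.86, 6.26 and 8.36 (difference 2.10), Gjb2, a gap junction protein of arachnoid cells, at 7.64, 7.40 and 9.18 (1.77), and Slc6a13, a GABA and taurine transporter, at 8.02, 8.60 and 10.37 (1.76). The organic anion carrier Slc22a6 was at 7.07, 7.15 and 8.87. Of 24 choroid plexus genes 21 were kept, 8 were at least 2-fold higher and 0 lower, with a median of 0.78. Here the 3 d array was the low one: the median level ran 8.01, 6.90 and 8.03. Transthyretin (Ttr), the thyroid hormone carrier of cerebrospinal fluid, stood at 12.55 in naive aged rats, 11.34 at 3 d and 12.53 at 14 d, and klotho (Kl) at 8.63, 6.88 and 8.33. The channel Kcnj13 ran 9.25, 8.12 and 9.85, and Clic6 8.28, 6.32 and 8.03. Whether more or less of these tissues was taken with the samples was not tested, nor was their part in the levels of Igf2, lumican and the collagens. Snai2, a transcription factor of mesenchymal cells, was also higher (6.92, 7.25 and 9.09), as was coagulation factor F10 (6.39, 7.52 and 9.37). Ependymal genes (13 of 18 kept) had a median of 0.22 with none past 2-fold.

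**Figure D3:**
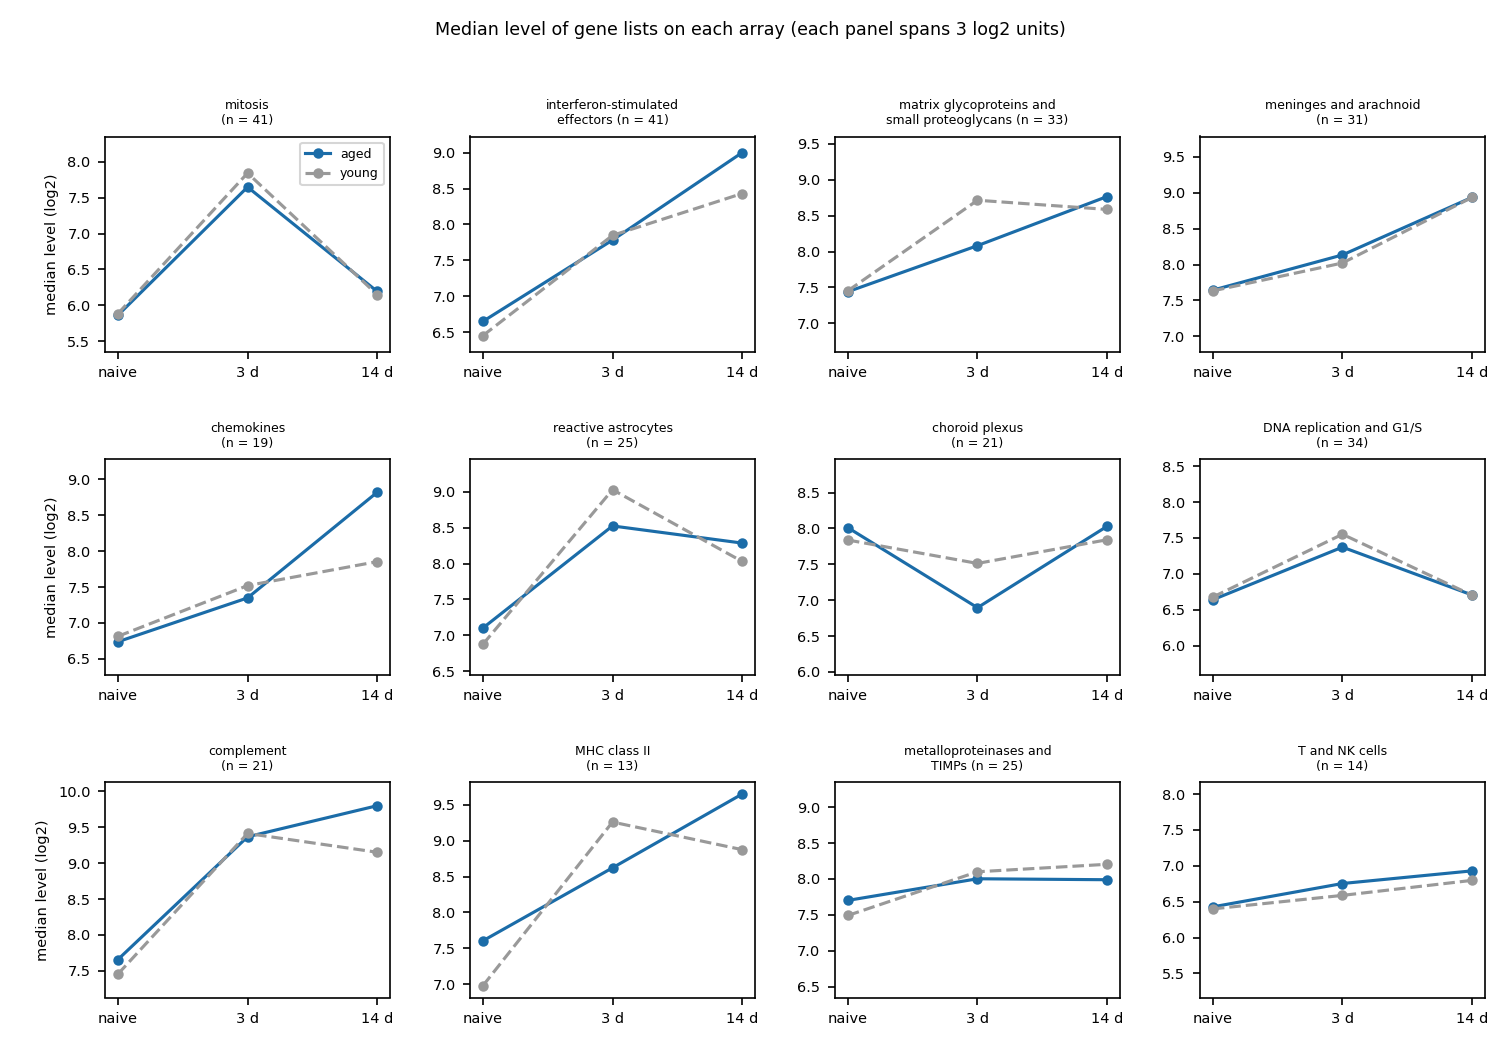
Median deposited log2 level of 12 gene lists on the naive, 3 d and 14 d arrays of aged (blue, solid) and young rats (grey, dashed), 1 pooled array per point; these lists hold the most genes past 2-fold in aged rats, and each panel spans 3 log2 units. In aged rats mitosis peaks at 3 d (7.65), interferon effectors are highest at 14 d (9.001), and choroid plexus genes are lowest at 3 d (6.90).

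Reactive astrocyte genes held members on both sides. Of 27 measured 25 were kept, 6 were at least 2-fold lower and 3 higher, with a median of -0.22. Lcn2 (lipocalin 2), an iron-binding protein of inflamed tissue, stood at 6.60 in naive aged rats, 10.80 at 3 d and 8.27 at 14 d, a difference of -2.53. Serpina3n, a protease inhibitor, ran 5.94, 8.41 and 6.39 (-2.02), Hspb1, a small heat shock protein, 7.29, 10.95 and 9.24 (-1.71), and the membrane protein Emp1 was at 9.58 and 7.99. Lcn2 and Hspb1 thus stayed above their naive values at 14 d. The stress factor Nupr1 (1.09), ceruloplasmin (Cp, 1.05) and the metalloreductase Steap4 (1.03) were higher. Gfap, the filament of astrocytes, was high on both arrays, at 12.41 and 12.19. Homeostatic astrocyte genes (24 of 24 kept) had a median of 0.06 with none past 2-fold.

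Vessel genes mostly lay within 2-fold. Of 35 endothelial genes 31 were kept with a median of -0.07, and Vcam1, an adhesion molecule for white cells, was the only one past 2-fold, at 8.71 in naive aged rats, 8.58 at 3 d and 9.87 at 14 d. Pericyte and smooth muscle genes (17 of 18 kept) had a median of -0.28, and Tagln, an actin-binding protein of contractile cells, ran 8.41, 10.74 and 8.50, a difference of -2.24. Mature oligodendrocyte and myelin genes (25 of 26 kept) had a median of -0.04 with none past 2-fold. Among genes of oligodendrocyte precursors and new oligodendrocytes (11 of 11 kept, median 0.10), Enpp6, a mark of newly formed cells, went from 7.72 to 8.75.

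Neuronal lists had small differences, mostly below 0. Of 36 synaptic vesicle genes, all kept, 31 were below 0 with a median of -0.18, and of 45 potassium channels, all kept, 40 were below 0 with a median of -0.19. Complexin 1 (Cplx1), which clamps vesicles before release, was at 10.85 in naive aged rats, 10.20 at 3 d and 9.74 at 14 d, and Kcns1 at 7.78, 7.44 and 6.82. Sodium and calcium channels (25 of 25 kept, median -0.13), glutamate and GABA receptors (34 of 35, -0.10), glutamatergic genes (20 of 20, -0.06), GABAergic genes (20 of 21, -0.16), striatal genes (25 of 25, -0.07) and immediate early genes (24 of 24, -0.18) had no member past 2-fold. All 19 kept genes (of 20) for neurofilaments, tubulins and axon proteins were below 0, with a median of -0.20. Tubb6 (-1.61) and Tubb2b (-1.30), tubulins of growing cells, were past 2-fold, and the neurofilament Nefh ran 9.26, 8.67 and 7.95. Axon growth genes (26 of 27 kept) had a median of -0.18, with the guidance receptor Nrp1 at 1.09 and Tubb2b, which this list also holds, at -1.30.

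Neuropeptide precursors (28 of 32 kept) had a median of -0.20. Avp, the hormone vasopressin, was the only one past 2-fold, at 7.94 in naive aged rats, 8.07 at 3 d and 7.06 at 14 d. The hypothalamic, midbrain and pineal list (16 of 20 kept), which holds it too, had a median of -0.14, and the thalamic list (9 of 9 kept) 0.12. The median level of the thalamic list ran 8.56 in naive aged rats, 6.36 at 3 d and 6.70 at 14 d. The thalamic transporter Slc17a6 stood at 8.89 in naive aged rats and at 6.36 and 6.60 after stroke. Whether the naive pools took in other brain regions was not tested. Red cell genes (3 of 8 kept) had a median of -0.73, or -0.22 with no filter, led by Hbb-b1 (6.90 and 5.61), and muscle genes (8 of 19 kept) -0.17.

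Genes of general cell function lay close to 0. The ribosomal protein genes (69 of 70 kept, median -0.05), respiratory chain genes (69 of 71, -0.08), glycolysis genes (25 of 25, -0.10), cholesterol synthesis genes (20 of 20, -0.23), p53 targets (17 of 19, -0.02) and metallothionein and oxidative stress genes (26 of 26, -0.05) had no member past 2-fold. Heme and iron genes (25 of 27, 0.02) held Lcn2 and Cp, and heat shock genes (22 of 23, -0.14) held Hspb1. Within cholesterol synthesis 17 of 20 genes were below 0, and the squalene enzymes Sqle and Fdft1 both differed by -0.55.

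The same contrast in young rats, which uses neither aged array although all 6 arrays set the filter and the probe sets, had 48 genes at least 2-fold higher (0.438%) and 164 lower (1.5%), 212 genes or 1.94% in all. Of the 165 genes higher in aged rats 45 were also past 2-fold in young rats, which is 27.3% of the aged and 93.8% of the young list. A further 103 had a positive young difference under 2-fold, and 17 were at 0 or below. Of the 97 genes lower in aged rats 85 were past 2-fold in young rats too, which is 87.6% of the aged and 51.8% of the young list. Across all 10947 genes the aged and young differences had a Pearson correlation of 0.487 and a Spearman correlation of 0.198, with no p because genes are not replicates. The genes higher in aged rats had a median young difference of 0.61 against 1.30 in aged rats, and the lower genes -1.68 against -1.34. For genes chosen on the young difference the young median was 1.197 beside 1.54 in the aged pools on the higher side, and -1.44 beside -1.03 on the lower side. Which age had the longer list thus differed by direction: aged rats for higher genes and young rats for lower genes.

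Single genes of the aged list show both cases. Igf2 had a young difference of 2.67 beside 3.00 in aged rats, C3 2.15 beside 2.24, and Irf7 1.83 beside 1.91. Cxcl13 had 0.95 beside 2.56, Slfn4 0.96 beside 2.56, and Ccl3 0.18 beside 1.84. Serpina3n had the larger negative difference in young rats, -3.26 beside -2.02, having stood at 10.40 on the young 3 d array. Interferon effectors had 12 of 41 genes past 2-fold in young rats with a median of 0.61, meningeal genes 6 of 31 with 0.44, complement 1 of 21 higher and 1 lower with 0.04, and chemokines 1 higher and 2 lower of 19 with 0.18. An age difference in these values has no residual degrees of freedom and was not tested. In naive rats 18 genes were at least 2-fold higher in aged than in young pools (0.164%) and 0 were lower. The thalamic list had a median level of 7.88 in young and 8.56 in aged naive rats, and the striatal list 10.06 and 9.62. Whether the naive pools held the same brain regions was not tested, so age and region cannot be told apart in this count.

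**Figure D4:**
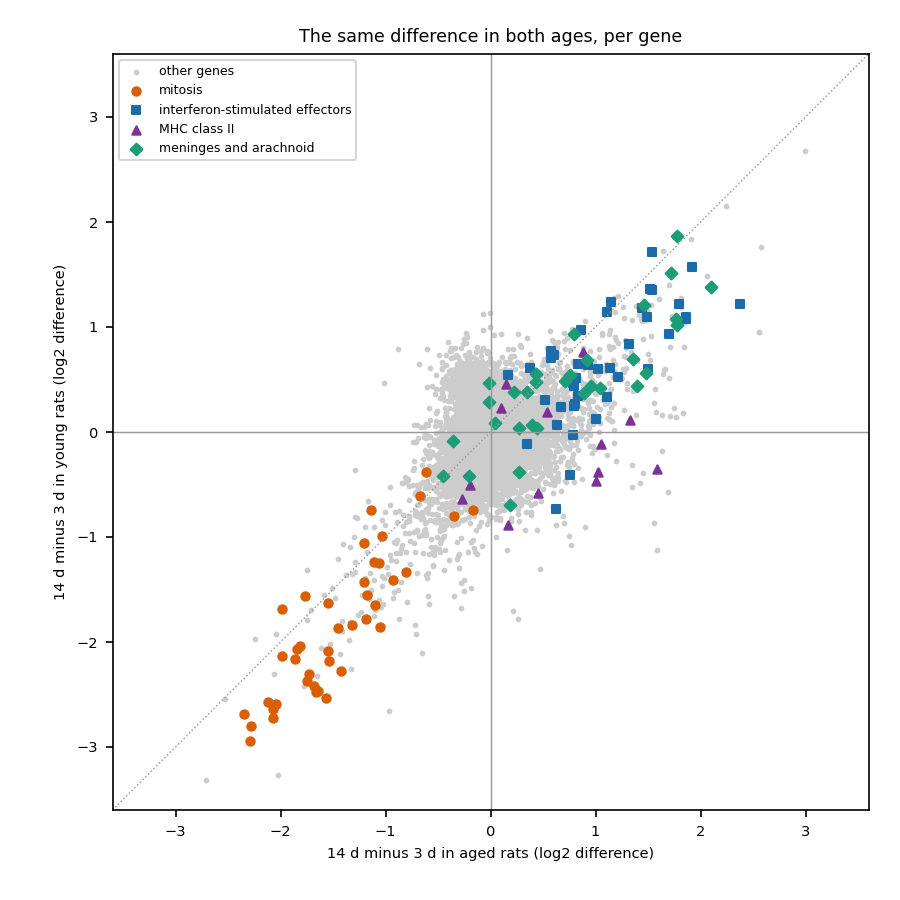
Difference between 14 d and 3 d (log2) in aged rats (x axis) and in young rats (y axis) for each of 10947 genes, with 4 lists coloured and the dotted line marking equal values. Mitosis genes lie in the lower left in both ages, interferon effectors mostly in the upper right, and several MHC class II genes are above 0 in aged and below 0 in young rats.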

How the data were processed

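Per the labels' protocols, total RNA was extracted with TRIzol, freed of DNA, amplified and labelled with biotin for single-channel Affymetrix arrays. The values the authors deposited, 1 for each probe set of an array, were taken as log2 values; the base is unstated and was inferred from their range, so folds depend on it. R 2.14.0 and affy were used, per the submitters' processing notes. How background was corrected and arrays were normalized, and on which build, is not given in the sources used here. The same holds for scan dates.

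Of 28826 probe sets, 15209 had 1 symbol in the platform annotation, 306 several and 13311 none here; 15178 matched RefSeq (GRCr8) and 0 symbols changed. The probe set with the highest mean over 6 arrays stood for a gene, and genes at the 40th percentile on at least 1 array were kept. Differences were computed with Python 3.11.15 and pandas 2.3.3; the code was tested on simulated data. The 59 lists were matched by symbol (1489 entries) or synonym (7), and 207 were unmatched; members and lists were chosen with earlier results of these data known. Named were the 20 largest differences each way among genes at or above the array median at 3 d or 14 d (locus-style names left out), up to 4 members per list, members past 2-fold against their list's sign, and cell type markers. Promoters of 300 bases came from RefSeq (GRCr8), with entries for 9041 of 10947 genes. Alternatives were median centring, quantile normalization, no filter, a 60th percentile filter, a filter on the 2 arrays compared, and the mean of all probe sets. The number of arrays limits the precision, and no p-value was computed.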

Additional observations from a re-analysis of the deposited data

Results flagged for a closer look

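Several results went one way in aged and the other way in young rats, by at least 0.25 on the log2 scale in each. The age difference was not tested for any of them, since each value comes from 1 pooled array a side. The median of the MHC class II list was 0.533 in aged and -0.350 in young rats. In young rats RT1-Da (1.589 aged, -0.350 young) and RT1-Ba (1.028 and -0.385) were highest at 3 d, and in aged rats at 14 d. The NADPH oxidase list, enzymes that make superoxide in phagocytes, had medians of 0.384 and -0.580. With no filter on low values its aged median was 0.03, which no longer meets that size. Among single genes of myeloid cells, Plac8 differed by 1.689 in aged and -0.571 in young rats, Ccl6 by 1.561 and -0.869, and the cytokine Il1a by 1.020 and -0.364. Il1a was below the 40th percentile on every array but the aged 14 d one, so its young difference lies between levels close to background. Cd8b, a coreceptor chain of cytotoxic T cells, differed by 1.348 and -0.528. The T cell genes Cd3d, Cd3e and Cd3g were below the 40th percentile on all 6 arrays, so Cd8b alone does not show a change in T cells. Avp differed by -1.018 in aged and 0.462 in young rats. Oxt, another neuropeptide precursor, differed by -0.885 and 0.787, within 2-fold in both ages. The hypothalamic, midbrain and pineal list, which holds Avp, had medians of -0.139 and 0.402. Whether the pools differed in the brain regions taken was not tested. Glycam1, a mucin-like ligand of L-selectin, differed by 1.582 and -1.122. It was the only gene past 2-fold in opposite directions in the 2 ages, and was named after its values were seen. Only on the aged 14 d (7.54) and young 3 d (7.51) arrays did Glycam1 reach the 40th percentile. Both differences are thus taken from levels close to background.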

How the results depend on the processing

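Under the 6 alternatives no named gene past 2-fold changed sign. Of the list medians, 5 lists did under a filter setting, none with a main median above 0.17 in size: collagens, B and plasma cells, mast cells, cytokines and p53 targets. The count of genes at least 2-fold higher in aged rats lay between 144 and 174, and of lower genes between 67 and 99. In young rats the higher genes numbered between 44 and 52, and the lower genes between 115 and 174. Higher genes made up 62.8% to 68.2% of those past 2-fold in aged rats. With the 60th percentile filter, which tests fewer genes, 22 mitosis genes in place of 35 and 3 replication genes in place of 6 were at least 2-fold lower. List medians kept within 0.25 in 343 of 354 values. The 60th percentile filter moved the median of collagens to 1.35, T and NK cells 1.35, choroid plexus 1.12, chemokines 1.03, B and plasma cells 0.89, MHC class II 0.88 and mast cells 0.59. With no filter chemokines were at 0.22, NADPH oxidase 0.03, mast cells -0.08 and red cells -0.22. Rrm2 was at -2.45 as the mean of its probe sets. No paired analysis was possible because each group is 1 array. Genes below the 40th percentile at one time have differences that are less certain.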

Other observations

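Genes outside the lists also stood apart, and those named here were chosen after their values were seen. Of the 262 genes past 2-fold in aged rats, 109 were in no list. Some histone genes, made as DNA is copied, were among the lower ones, with histone genes not counted as a group: H1f1 stood at 7.81 in naive aged rats, 9.13 at 3 d and 7.39 at 14 d, and H2ac4 at 6.45, 8.10 and 6.76. Single histone genes are nearly identical to each other, so their probes may be shared. Myeloid receptors were among the higher genes: Clec4a ran 4.91, 6.07 and 7.49, Adgre1, the F4/80 antigen, 7.84, 9.55 and 10.85, and Havcr2 (TIM-3) 6.96, 8.16 and 9.42. In young rats their differences were -0.48, 0.47 and 0.60. Clec4a was below the 40th percentile on every array but the aged 14 d one, so its young difference lies between levels close to background. Slfn9 ran 6.08, 8.99 and 10.74 in aged rats, a difference of 1.75 beside 0.23 in young rats.

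Lower genes in no list included Calca, the precursor of calcitonin gene-related peptide, at 5.91, 7.17 and 5.84, and Gpd1, a glycerol phosphate enzyme of glia, at 9.98, 11.16 and 9.87. The growth factor Hbegf was at 7.42, 8.22 and 7.20.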
